A study of Mus musculus with 6 samples.

Results

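The genes described here encode the enzymes that build cholesterol, the proteins that set the activity of the transcription factor SREBP2, and carriers of sterol inside the cell and out of it. They were chosen by name, 30 symbols in all, with earlier results of these data known. Each symbol matched 1 of the 37224 Ensembl IDs in the deposited table of RPKM values (reads per unit of gene length and of sequencing depth). All 30 reached an RPKM of at least 1 in at least 1 of the 4 RNA-seq libraries, the filter used throughout, which 12588 genes passed. The libraries came from mouse embryonic fibroblasts (MEF), which the labels call primary and of C57BL/6 background. They were wild-type cells without arsenite, wild-type cells with low-dose sodium arsenite, Dot1L-/- cells without arsenite, and Dot1L-/- cells with low-dose sodium arsenite. Dot1L is the enzyme that methylates lysine 79 of histone H3, and Dot1L-/- cells are called null below. The exposure lasted 24 h. The protocol lists 5 and 10 µM beside 0 µM, and the labels do not say which of them is the low dose. The labels also do not say how Dot1L was deleted, or how many embryos or clones stand behind each genotype. Each group held 1 library, so every difference below is between libraries, with no replicate check and no test. A further 2 libraries, of the histone mark H3K27ac, were not analysed here.

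Cholesterol synthesis starts from acetyl-CoA. The mevalonate steps make isoprenoid units, which are joined to farnesyl diphosphate and then to squalene, and squalene is closed to lanosterol, the first sterol, which further enzymes convert to cholesterol. SREBP2, the product of Srebf2, is made as a membrane protein of the endoplasmic reticulum. When sterols are low, the escort protein SCAP carries it to the Golgi, where the site-1 and site-2 proteases, encoded by Mbtps1 and Mbtps2, release the part that enters the nucleus and activates genes of synthesis and uptake. When sterols are high, the INSIG proteins hold SCAP back. Fibroblasts both make cholesterol and take it up from serum lipoproteins, and the cells here were grown with fetal bovine serum. None of the 30 genes encodes a lipoprotein receptor. The uptake route is represented by Npc1 and Npc2, which act in the lysosome after uptake.

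Whole-read steps in the RPKM values gave the depth of each library. It was 62972880 reads for the wild-type control and 64699847 for the untreated null, but 10833103 and 11879632 for wild type and null with arsenite. RPKM summed over all genes to 323300 and 353300 in the untreated libraries and to 622100 and 662100 in those with arsenite, so a given RPKM was a smaller part of the total in the latter. Dot1l itself had RPKM values of 30.4 in the wild-type control, 5.71 in wild type with arsenite, 9.59 in the untreated null and 1.24 in the null with arsenite. At matched treatment it was lower in the null but not absent, and where in the gene its remaining reads lie cannot be seen in a value per gene. Of 9 fibroblast markers 7 passed the filter, with summed RPKM values of 1965, 799, 1326 and 1161 in that order. Vim supplied most of that sum, and without it, a step chosen after its values were seen, the list summed to 655, 96.7, 433 and 159.9, lower with arsenite in both genotypes. Thy1 was listed at 0 in all 4 libraries and Lum was at 0.0459 or below. Of 5 adipocyte markers only Fabp4 passed, and the list summed to 1.44, 8.23, 1.81 and 22.6. Its other markers Adipoq, Plin1, Cidec and Lep were at 0.0668 or below in every library. Of 6 macrophage and leukocyte markers Cd68 and Lyz2 passed, and the list summed to 2.69, 5.06, 3.65 and 9.28, with Ptprc at 0.00819 or below. Of 4 markers each for epithelial, endothelial and hepatocyte cells 1 passed, and the summed RPKM of each list was 2.85 or below in every library. The part of other cells in the results was not tested. In RNA from whole cultures, fewer cells of a type and less RNA per cell cannot be told apart.

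The synthesis genes as a group had their highest median level in the untreated wild type, lower ones in the untreated null and in wild type with arsenite, and one in between in the null with arsenite, but single genes departed from that order. With arsenite in the null 10 of the 20 were higher by at least 2-fold, and 2 were lower by as much. Over all genes tested the shares were 15.2% and 37.1%. For the 20 genes of synthesis the median RPKM was 23.4 in the wild-type control, 8.96 in wild type with arsenite, 8.31 in the untreated null and 16.4 in the null with arsenite. Over all 30 genes it was 23.4, 6.46, 9.16 and 10.2 in the same order. The wild-type control was the highest of the 4 libraries for 17 of the 30 genes, or 56.7%, against 41.3% of all genes tested. Wild type with arsenite was the lowest library for 15 of the 30, against 19.1% of all genes tested. The null with arsenite, the lowest library for 48.6% of all genes tested, was lowest for 5 of the 30, or 16.7%.

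**Figure D1:**
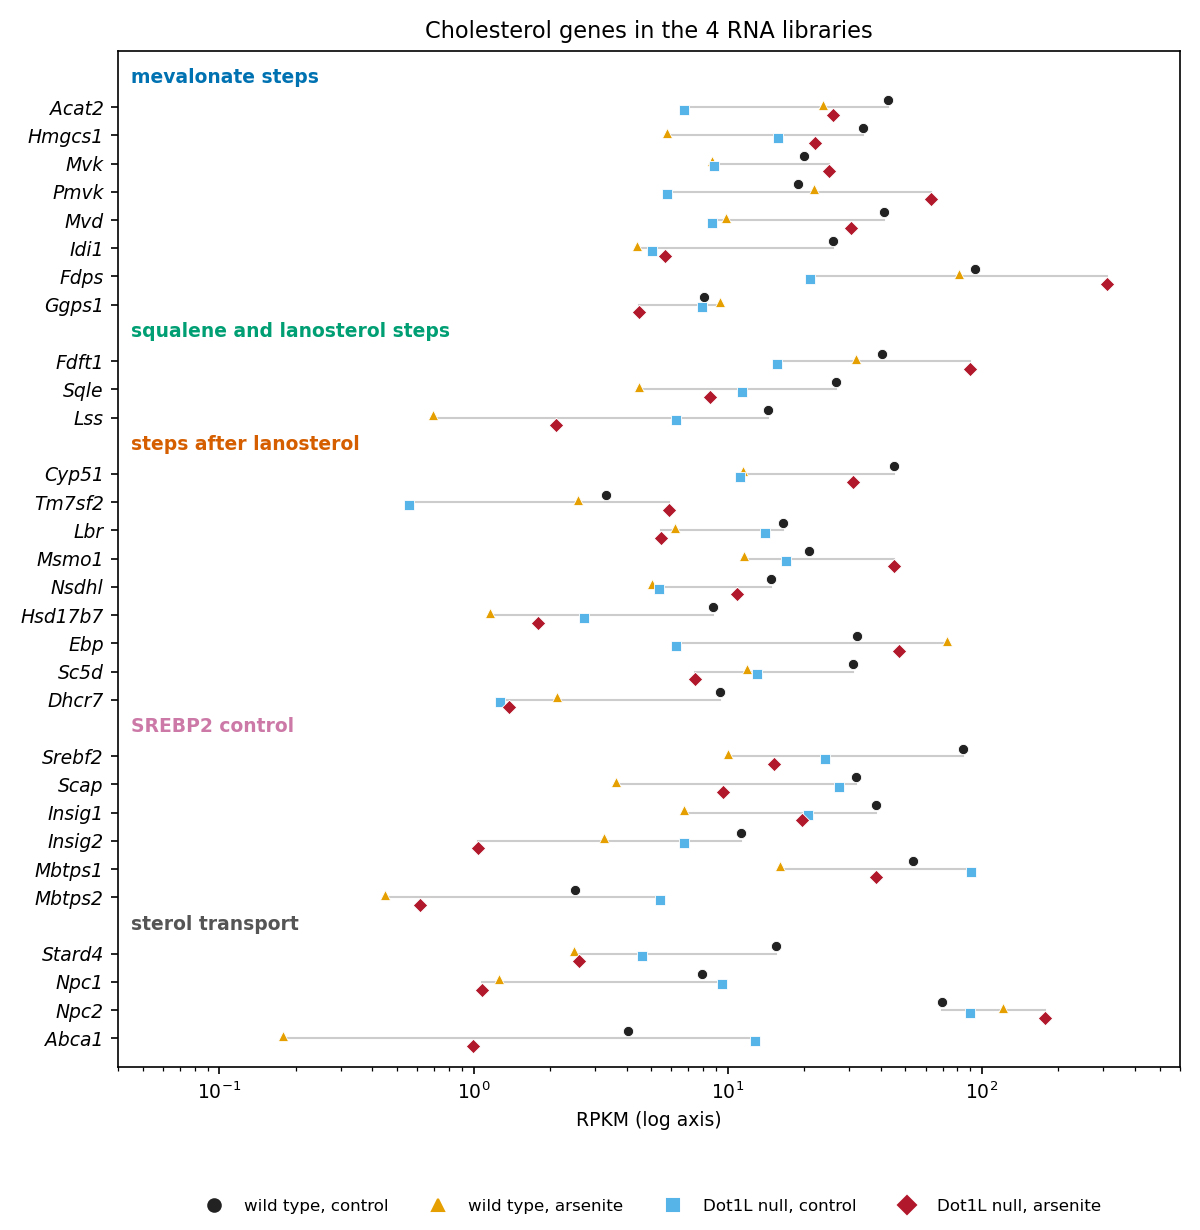
RPKM of each of the 30 genes (log axis) in the 4 libraries, 1 symbol per library, grouped by pathway step; there is 1 library per group and so no error bar, and symbols are shifted vertically only to keep them apart. In the synthesis groups the black circles of the untreated wild type sit to the right of the blue squares of the untreated null for all 20 genes, and the red diamonds of the null with arsenite range from 1.38 for Dhcr7 to 310.4 for Fdps.

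The mevalonate steps supply the isoprenoid units of the route. Acat2, the thiolase that joins acetyl-CoA units, had an RPKM of 42.5 in the wild-type control, 23.7 in wild type with arsenite, 6.74 in the untreated null and 26.01 in the null with arsenite. Hmgcs1, the synthase that makes HMG-CoA, had 34.1, 5.77, 15.7 and 21.9 in the same order, which is kept below. Mvk, mevalonate kinase, had 19.9, 8.63, 8.85 and 25.03. Pmvk, phosphomevalonate kinase, had 18.8, 21.8, 5.78 and 62.9. Mvd, the decarboxylase that makes isopentenyl diphosphate, had 41.1, 9.802, 8.66 and 30.4. Idi1, the isomerase of that product, had 25.9, 4.398, 5.04 and 5.64. In these 6 genes the untreated null was below the untreated wild type, and the null with arsenite was above wild type with arsenite. For Acat2 the ratio under arsenite was 1.10, with a 95% interval of 0.99 to 1.22, so those libraries were level within counting error. Fdps, which makes farnesyl diphosphate, reached the highest level of any of the 30 genes in any library, with 93.9, 81.2, 20.99 and 310.4. Ggps1, which leads farnesyl diphosphate into the separate geranylgeranyl branch, did not share the pattern: its values were 8.08, 9.28, 7.95 and 4.48, nearly level in the untreated libraries and lowest in the null with arsenite.

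Of the genes that carry farnesyl diphosphate to lanosterol, Fdft1, squalene synthase, had an RPKM of 40.5, 31.9, 15.6 and 89.7. Sqle, squalene epoxidase, had 26.7, 4.48, 11.4 and 8.54. Lss, lanosterol synthase, had 14.4, 0.693, 6.27 and 2.12. The null with arsenite was the highest library for Fdft1, whereas for Sqle and Lss it lay below both untreated libraries and above wild type with arsenite. The reads behind the arsenite values of Lss were few, 81 in wild type and 271 in the null. Its recovered length, 10787 bases, was the longest of the 30.

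After lanosterol, Cyp51, the demethylase of lanosterol, had an RPKM of 44.96, 11.5, 11.1 and 31.1. Msmo1, the methylsterol monooxygenase, had 20.9, 11.6, 16.9 and 44.97. Nsdhl, the sterol decarboxylase that acts with it, had 14.8, 5.01, 5.35 and 10.9, and Hsd17b7, the ketoreductase of the same demethylation, had 8.76, 1.16, 2.71 and 1.798. Wild type with arsenite was the lowest library for Msmo1, Nsdhl and Hsd17b7, and for Cyp51 it was level with the untreated null. Ebp, the sterol isomerase, had 32.3, 72.8, 6.23 and 47.04. It was the only synthesis gene at least 2-fold higher with arsenite in both genotypes. Sc5d, a sterol desaturase, had 31.03, 11.9, 13.1 and 7.45, and Dhcr7, the reductase that acts late in the route, had 9.35, 2.12, 1.27 and 1.38. Both were highest in the untreated wild type, and neither was above wild type when the arsenite libraries were set side by side. Tm7sf2 and Lbr encode sterol reductases of the same step. Tm7sf2 had 3.33, 2.57, 0.554 and 5.89, and Lbr, which is also a protein of the inner nuclear membrane, had 16.5, 6.21, 14.1 and 5.48. The first was highest in the null with arsenite, and the second was low in both arsenite libraries.

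Among the genes of SREBP2 control, Srebf2 had an RPKM of 84.1, 10.03, 24.1 and 15.2. Insig1, which is itself known as a target of SREBP2, had 38.3, 6.71, 20.7 and 19.5. Insig2, its paralog, had 11.3, 3.27, 6.71 and 1.04. Insig1 was higher in the null than in wild type under arsenite, and Insig2 was lower. Scap had 31.98, 3.62, 27.3 and 9.56, close together in the untreated libraries and low with arsenite. Mbtps1 had 53.6, 16.03, 90.7 and 38.3, and Mbtps2 had 2.502, 0.448, 5.41 and 0.616. The protease genes were the only control genes higher in the untreated null than in the untreated wild type.

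Of the transport genes, Stard4, which encodes a cytosolic sterol carrier, had an RPKM of 15.4, 2.48, 4.599 and 2.61, with the untreated wild type above the other 3 libraries. Npc1, which exports cholesterol from the lysosome, had 7.92, 1.26, 9.48 and 1.07, low with arsenite in both genotypes. Npc2, its soluble partner, had 69.3, 121, 89.5 and 177, higher with arsenite in both. Abca1, the pump that passes cholesterol to apolipoproteins and a known target of the sterol sensor LXR, had 4.04, 0.178, 12.8 and 0.999. It ran against the synthesis genes in the untreated libraries, where the null was above wild type. Its value in wild type with arsenite rested on 20 reads.

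Promoter sequence was examined for the element through which SREBP2 acts. RefSeq promoter windows of GRCm38.p6, from 250 bases before to 50 after a start, were found for 25 of the 30 genes, 31 windows in all. Fdps, Fdft1, Sqle, Stard4 and Npc1 had none. The sterol regulatory element was searched as TCACNCCAC on both strands. An exact match stood in 1 of 31 windows, that of Hmgcs1, or 3.23%, against 1.24% of all 32851 windows in the table. With 1 mismatch allowed 10 windows held a match, or 32.3%, against 24.2% of all windows. CCAAT, the box bound by NF-Y, stood in 20 windows, or 64.5%, against 37.4%, and GGGCGG, the box bound by SP1, in 25, or 80.6%, against 35.7%; both were searched on both strands. The stretches from −210 to −41 relative to the start are shown for Hmgcs1, which holds the exact match, for Srebf2, the gene of the regulator itself, and for Cyp51, which has the largest difference of arsenite effects among the genes with a match in such a stretch. Each is given 5′ to 3′ on the strand of the gene, with the match in capitals, and those of Srebf2 and Cyp51 carry 1 mismatch. The Hmgcs1 stretch is chr13:119690141-119690310 on the plus strand, that of Srebf2 chr15:82147059-82147228 on the plus strand and that of Cyp51 chr5:4104738-4104907 on the minus strand.
Hmgcs1: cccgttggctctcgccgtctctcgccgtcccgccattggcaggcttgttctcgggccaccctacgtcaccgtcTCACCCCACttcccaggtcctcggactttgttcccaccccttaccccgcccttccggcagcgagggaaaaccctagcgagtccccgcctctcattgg
Srebf2: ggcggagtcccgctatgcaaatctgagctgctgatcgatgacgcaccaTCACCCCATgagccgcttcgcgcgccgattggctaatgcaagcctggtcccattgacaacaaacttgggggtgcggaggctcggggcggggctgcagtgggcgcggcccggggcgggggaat
Cyp51: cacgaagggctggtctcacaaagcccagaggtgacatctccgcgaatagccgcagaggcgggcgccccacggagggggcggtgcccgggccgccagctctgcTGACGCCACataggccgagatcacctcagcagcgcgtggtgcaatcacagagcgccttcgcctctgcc
A match in these letters is a description of the sequence, and binding was not measured. Sterol elements that differ from the searched letters at more than 1 base are not marked. The capitals therefore need not be the element in use.

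Arsenite was first set against control within wild-type cells. Here 21 of the 30 genes were at least 2-fold lower and 1 was at least 2-fold higher, on the scale log2(RPKM + 1), which understates the difference of genes at low values. Over all genes tested 35.7% were lower and 12.8% higher by the same measure. The median of the 30 was −1.60 on that scale and the median of all genes −0.56, so the 30 lay 1.04 below. By RPKM, Abca1 was 22.7-fold lower (14.7 to 37.2), with a 95% interval of the ratio of reads in parentheses, as below. Lss was 20.8-fold lower (16.7 to 26.2), Scap 8.84-fold lower (6.95 to 11.4), and Srebf2 8.39-fold lower (7.704 to 9.15). All 6 genes of SREBP2 control were lower, though 3 with the length trend described below removed, with Insig1 5.72-fold lower (4.96 to 6.62), Mbtps2 5.59-fold lower (4.21 to 7.59), Insig2 3.45-fold lower (2.88 to 4.17) and Mbtps1 3.34-fold lower (3.11 to 3.599). Of the synthesis genes 12 of 20 were lower. Among them Hsd17b7 was 7.56-fold lower (5.91 to 9.85), Sqle 5.96-fold lower (5.28 to 6.76), Hmgcs1 5.92-fold lower (5.14 to 6.84) and Idi1 5.899-fold lower (5.06 to 6.92). Dhcr7 was 4.41-fold lower (3.56 to 5.52), Mvd 4.19-fold lower (3.62 to 4.88) and Cyp51 3.92-fold lower (3.597 to 4.29). Nsdhl, Lbr, Sc5d and Mvk were between 2.304-fold lower (2.03 to 2.63) and 2.94-fold lower (2.502 to 3.48). Npc1 was 6.31-fold lower (5.35 to 7.49) and Stard4 6.23-fold lower (5.29 to 7.37). Ebp was 2.25-fold higher (2.13 to 2.38). The 8 genes past neither bound lay between −0.82 for Acat2 and 0.80 for Npc2 on the log2 scale.

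The same contrast within null cells divided the 30 genes. At least 2-fold higher were 10 of them, all genes of synthesis, and at least 2-fold lower were 8. Over all genes tested 15.2% were higher and 37.1% lower. The median of the 30 was −0.01 on the log2 scale and that of all genes −0.53, and for the 20 synthesis genes it was 1.13. Fdps was 14.8-fold higher (13.98 to 15.7), Pmvk 10.9-fold higher (9.83 to 12.1), and Tm7sf2 10.6-fold higher (8.54 to 13.3). Ebp was 7.55-fold higher (6.94 to 8.22) and Fdft1 5.73-fold higher (5.45 to 6.04). Acat2 was 3.86-fold higher (3.52 to 4.23), Mvd 3.52-fold higher (3.18 to 3.89), Mvk 2.83-fold higher (2.59 to 3.08), Cyp51 2.79-fold higher (2.62 to 2.96) and Msmo1 2.65-fold higher (2.55 to 2.77). The lower genes were mostly of control and transport. Abca1 was 12.8-fold lower (10.7 to 15.5), Npc1 8.81-fold lower (7.44 to 10.5), Mbtps2 8.78-fold lower (6.98 to 11.2) and Insig2 6.43-fold lower (4.75 to 8.93). Lss was 2.97-fold lower (2.62 to 3.37), Scap 2.86-fold lower (2.47 to 3.32), Lbr 2.56-fold lower (2.24 to 2.94) and Mbtps1 2.37-fold lower (2.26 to 2.48). Srebf2 was past neither bound, 1.58-fold lower (1.47 to 1.69).

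**Figure D2:**
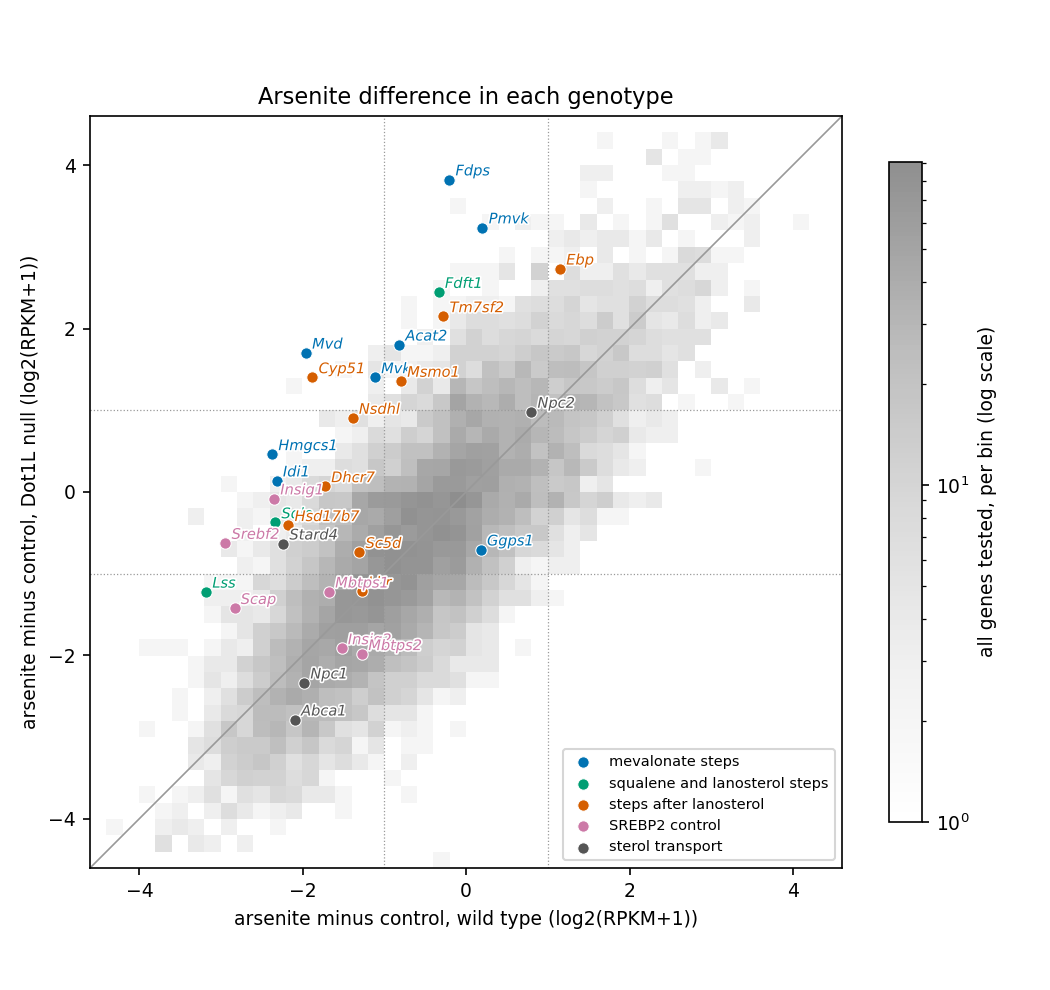
Difference between the arsenite and the control library in wild-type cells (horizontal axis) and in Dot1L null cells (vertical axis), both in log2(RPKM + 1), for the 30 genes as points coloured by pathway step, over the density of all 12588 genes tested in grey. The solid line marks equal differences and dotted lines mark 2-fold; 21 of the 30 points lie at least 1 above the solid line and none at least 1 below it.

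The arsenite differences moved with gene length in both genotypes, and this bears on the counts above. Over all genes the median difference was 0.33 in wild type in the length class 1000 to 2000 bases and −1.34 in the class 6000 to 10000, and 0.31 and −1.28 in the null. The lengths were recovered from the RPKM steps; those of the 30 genes ran from 1241 bases for Fdps to 10787 for Lss, with a median of 3478.5. Across the 30 genes, which share their libraries and are not replicates, the correlation of log2 length with the arsenite difference was −0.44 in wild type and −0.66 in the null (Pearson), and −0.43 and −0.57 (Spearman). With the trend over all genes removed, 13 of the 30 were lower in wild type and 2 higher, against 15.4% and 15.8% of the 12155 genes with a usable length. In the null 13 were then higher and 3 lower, against 20.0% and 21.0%. Values of the long genes moved upward in this step. Abca1 stood at −2.10 in wild type before it and at −0.65 after it, and Npc1 at −1.98 and −0.53. Lss stood at −1.22 in the null before it and at 0.20 after it, and Mbtps2 at −1.27 in wild type before it and at 0.16 after it, so that for both the sign turned. Scap, whose recovered length was 1735 bases, stood at −2.84 and −3.01 in wild type, and Srebf2 at −2.95 and −1.94. The recovered length is the shortest that gives whole reads, so the true length of a gene can be a multiple of it. Were that so for Scap, its value after this step would lie above −3.01, since the medians fall with length. Fdps, the shortest, stood at 3.82 and 3.24 in the null.

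**Figure D3:**
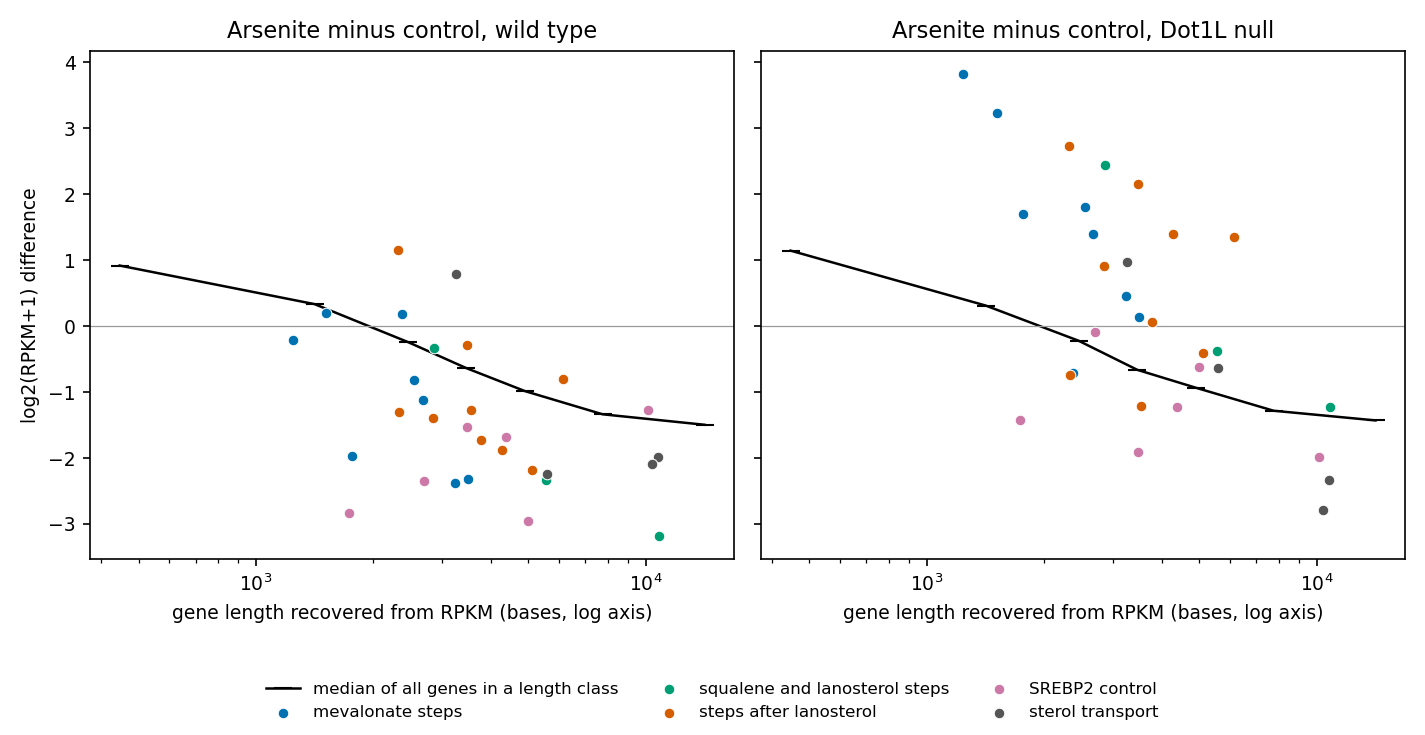
Difference between the arsenite and control libraries in log2(RPKM + 1) against recovered gene length in bases (log axis), in wild type on the left and Dot1L null on the right, for the 30 genes by pathway step; the black line joins the medians of all genes tested in 7 length classes. The line falls with length in both panels, and in the null most synthesis genes lie above it while Scap, Insig2 and the longest control and transport genes lie below.

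The genotypes were then compared without arsenite. Each genotype comparison shares a library with each arsenite comparison, so their values are given side by side and not as separate support. In the null control 19 of the 30 genes were at least 2-fold lower than in the wild-type control and 1 was at least 2-fold higher, against 14.7% and 6.45% of all genes tested. The median of the 30 was −1.17 and that of all genes −0.17. With the length trend removed 14 of the 30 were at least 2-fold lower, and 12 of the 20 synthesis genes. The median of the 30 was then −0.95 and that of all genes 0.01. The 14.7% of all genes was counted before that removal. As deposited, all 20 synthesis genes had a lower RPKM in the null, 17 of them by at least 2-fold. Dhcr7 was 7.36-fold lower (6.53 to 8.31), Acat2 6.31-fold lower (5.92 to 6.73) and Tm7sf2 6.01-fold lower (4.96 to 7.32). Ebp was 5.19-fold lower (4.83 to 5.57), Idi1 5.15-fold lower (4.83 to 5.495), Mvd 4.74-fold lower (4.43 to 5.09), Fdps 4.47-fold lower (4.24 to 4.72) and Cyp51 4.04-fold lower (3.88 to 4.2). Pmvk, Hsd17b7, Nsdhl, Fdft1, Sc5d, Sqle, Lss, Mvk and Hmgcs1 were between 2.18-fold lower (2.09 to 2.27) and 3.26-fold lower (2.96 to 3.59). The exceptions were Msmo1, 1.24-fold lower (1.196 to 1.28), Lbr, 1.17-fold lower (1.12 to 1.23), and Ggps1, 1.02-fold lower (0.939 to 1.103). Outside synthesis, Srebf2 was 3.497-fold lower (3.41 to 3.59) and Stard4 3.36-fold lower (3.18 to 3.55). Abca1, the efflux pump, was 3.17-fold higher (3.04 to 3.32), the 1 gene past 2-fold in that direction on the log2(RPKM + 1) scale. By RPKM alone Mbtps2 was also past it, 2.16-fold higher (2.04 to 2.297). Both libraries of this comparison were deep, and the fewest reads behind any of the 30 genes were 125, for Tm7sf2 in the null.

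Under arsenite the order of the genotypes was turned for most of these genes. In the null 11 of the 30 were at least 2-fold higher than in wild type and 1 was at least 2-fold lower, against 8.75% and 16.9% of all genes tested. The median of the 30 was 0.78 and that of all genes −0.28. Msmo1 was 3.87-fold higher (3.58 to 4.19), Fdps 3.82-fold higher (3.58 to 4.09) and Hmgcs1 3.81-fold higher (3.26 to 4.46). Mvd was 3.11-fold higher (2.63 to 3.68), Mvk 2.9-fold higher (2.51 to 3.36), Pmvk 2.89-fold higher (2.56 to 3.26), Fdft1 2.81-fold higher (2.62 to 3.02) and Cyp51 2.71-fold higher (2.46 to 2.997). Of the control genes Insig1 was 2.91-fold higher (2.47 to 3.43), Scap 2.64-fold higher (1.996 to 3.53) and Mbtps1 2.39-fold higher (2.196 to 2.6). Insig2 was 3.14-fold lower (2.2 to 4.55). Abca1 was 5.61-fold higher (3.48 to 9.501) by RPKM, with 0.76 on the log2(RPKM + 1) scale since both values were at or below 1. Lss, 3.05-fold higher (2.37 to 3.96), Tm7sf2, 2.29-fold higher (1.81 to 2.93), Nsdhl, 2.17-fold higher (1.79 to 2.64), and Ggps1, 2.07-fold lower (1.66 to 2.59), were likewise past 2-fold by RPKM and not on that scale. With a pseudocount of 0.1 the number higher was 15. Hmgcs1, Mvk, Pmvk, Mvd, Fdps, Fdft1 and Cyp51 were at least 2-fold lower in the null without arsenite and at least 2-fold higher with it. Those 7 of 30 compare with 26 of all 12588 genes tested, or 0.207%, and the pair of comparisons shares no library. The 30 were chosen with earlier results of these data known, so this contrast is a description and not a test. Median centring gave 7 genes and 0.278% of all genes, 75th percentile scaling 8 and 0.27%, and removal of the length trend 7 and 0.321%. Pmvk, Mvd, Fdps, Fdft1 and Cyp51 were among them each time, whereas Hmgcs1 and Mvk fell short of 2-fold untreated in all 3, and Tm7sf2 and Nsdhl entered in all 3 and Sqle with 75th percentile scaling.

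**Figure D4:**
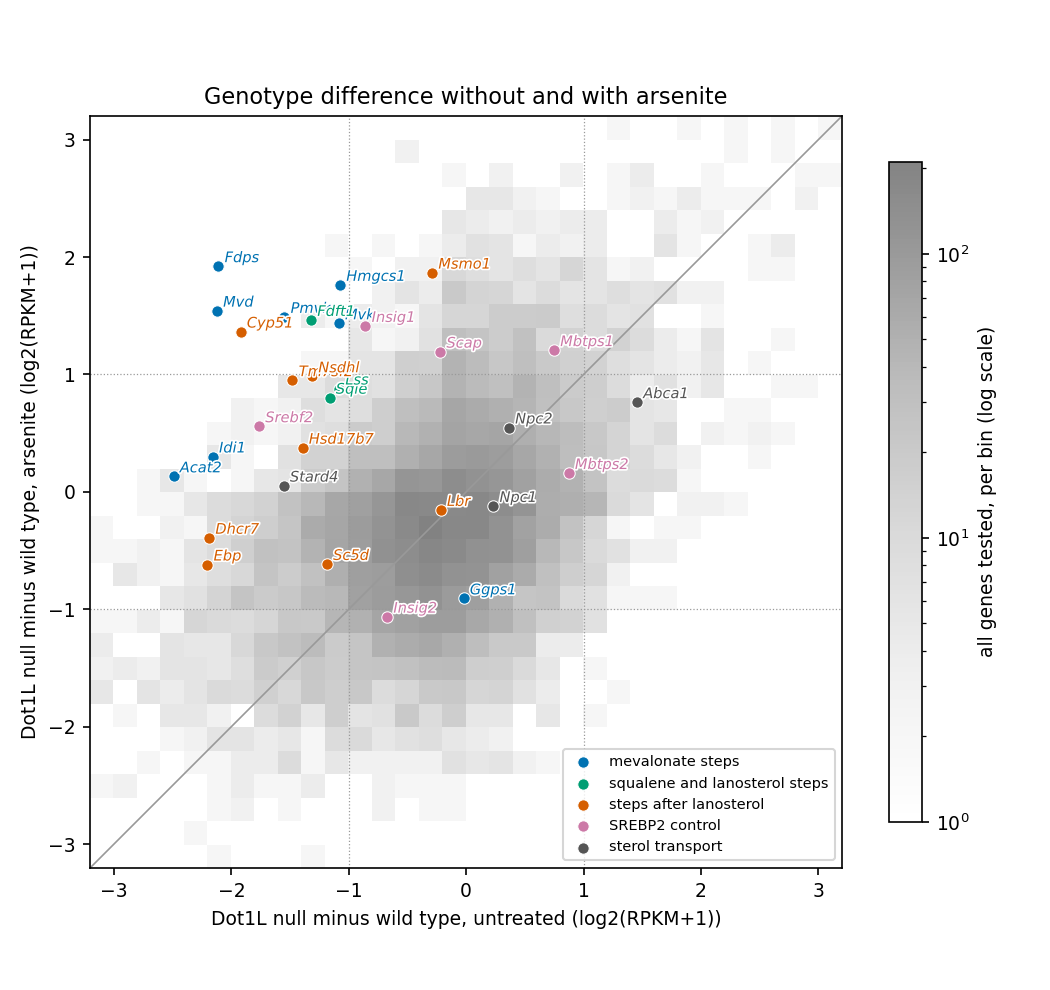
Difference between Dot1L null and wild type without arsenite (horizontal axis) and with arsenite (vertical axis), both in log2(RPKM + 1), for the 30 genes as points coloured by pathway step, over the density of all 12588 genes tested in grey. Dotted lines mark 2-fold; the upper left corner, lower in the null untreated and higher in the null with arsenite, holds 7 of the 30 points and 26 of all genes tested.

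The difference of the arsenite effects was taken on the log2 scale, wild type subtracted from null. It uses all 4 libraries, so it holds no data beyond the comparisons above. It was at least 1 in 21 of the 30 genes and at most −1 in none, against 12.1% and 12.8% of all genes tested. The median of the 30 was 1.96 and that of all genes −0.06. The Pearson correlation with log2 length was −0.04 over all genes and −0.47 over the 30. With the length trend removed the counts were again 21 and 0. The mevalonate genes had a median of 2.73, with 7 of 8 at or past 1, led by Fdps at 4.03, Mvd at 3.66 and Pmvk at 3.04. All 3 genes from squalene to lanosterol were past 1, with a median of 1.96 and with Fdft1 at 2.78. After lanosterol 7 of 9 were past 1, with a median of 1.80 and Cyp51 at 3.28. Of the control genes Srebf2 at 2.32, Insig1 at 2.27 and Scap at 1.41 were past 1, whereas Mbtps1 stood at 0.46, Insig2 at −0.39 and Mbtps2 at −0.71. Of the transport genes Stard4 was past 1 at 1.61, and Npc2, Npc1 and Abca1 lay between −0.69 and 0.18. The synthesis genes past neither bound were Sc5d at 0.57, Lbr at 0.06 and Ggps1 at −0.89.

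Neighbouring parts of sterol and lipid metabolism were read from lists of genes outside the 30. Their counts are to be read against the shares of all genes tested. With arsenite these were 35.7% lower and 12.8% higher in wild type, and 37.1% lower and 15.2% higher in the null. With the length trend removed the shares in wild type were 15.4% lower and 15.8% higher. In the null they were then 21.0% lower and 20.0% higher. For the difference of the effects 12.1% were at least 1 and 12.8% at most −1. Of 17 listed genes of sterol transport, storage and LXR, 15 passed the filter. Their difference of the arsenite effects was at least 1 in Lpcat3, a phospholipid enzyme, at 1.89, and at most −1 in Soat1, which makes cholesterol esters, at −1.14, with a median of 0.41. With arsenite 7 of the 15 were at least 2-fold lower in wild type and 8 in the null, against 35.7% and 37.1% of all genes tested. In the same order 0 and 2 were higher. Once the length trend was removed, the counts were 6 and 4 lower, and 0 and 2 higher. Next in size were Mylip, a ligase that degrades lipoprotein receptors, at 0.88, and Lipa, the lysosomal acid lipase, at 0.83. Of 9 genes of sterol-regulated degradation at the endoplasmic reticulum none was at or past 1 and Erlin1 was at −1.30, with a median of −0.35. With arsenite 4 of the 9 were at least 2-fold lower in wild type and 5 in the null, and 1 was higher in each; with the length trend removed 2 and 5 were lower. Syvn1, which encodes a ubiquitin ligase, stood at −0.95 and Faf2 at −0.81. Of 10 genes that use isoprenoids the difference was at least 1 in none and at most −1 in 3, with a median of −0.63. With arsenite 1 of the 10 was at least 2-fold lower in wild type and 5 in the null, and 0 were higher in either. Once the length trend was removed, wild type had 2 lower and 2 higher, and the null 3 lower and 1 higher. The 3 genes at most −1 were Rabggtb, a subunit of the Rab prenyltransferase, at −1.77, Coq2, of ubiquinone synthesis, at −1.43, and Pggt1b, a subunit of a geranylgeranyl transferase, at −1.32; Nus1, of dolichol synthesis, stood at −0.90.

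For fatty acid synthesis and its regulator SREBP1, 13 of 14 listed genes passed the filter, and 12 of the 13 were at least 2-fold lower with arsenite in wild type, with 9 lower and 1 higher in the null, against 35.7% lower in wild type and 37.1% lower and 15.2% higher in the null over all genes tested. With the length trend removed 7 were lower in wild type, against 15.4% of all genes. In the null 3 were then lower and 2 higher, against 21.0% and 20.0%. The difference of the effects was at least 1 in 4 of 13, against 12.1% of all genes tested, with a median of 0.67. It was largest for Elovl6, a fatty acid elongase, at 2.75, followed by Acss2, an acetyl-CoA synthetase, at 1.81, and the desaturases Scd2 at 1.77 and Scd1 at 1.42. The RPKM of Elovl6 was 6.19 in the wild-type control, 2.25 in wild type with arsenite, 1.797 in the untreated null and 7.53 in the null with arsenite, with the untreated null lowest and the null with arsenite highest.

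**Figure D5:**
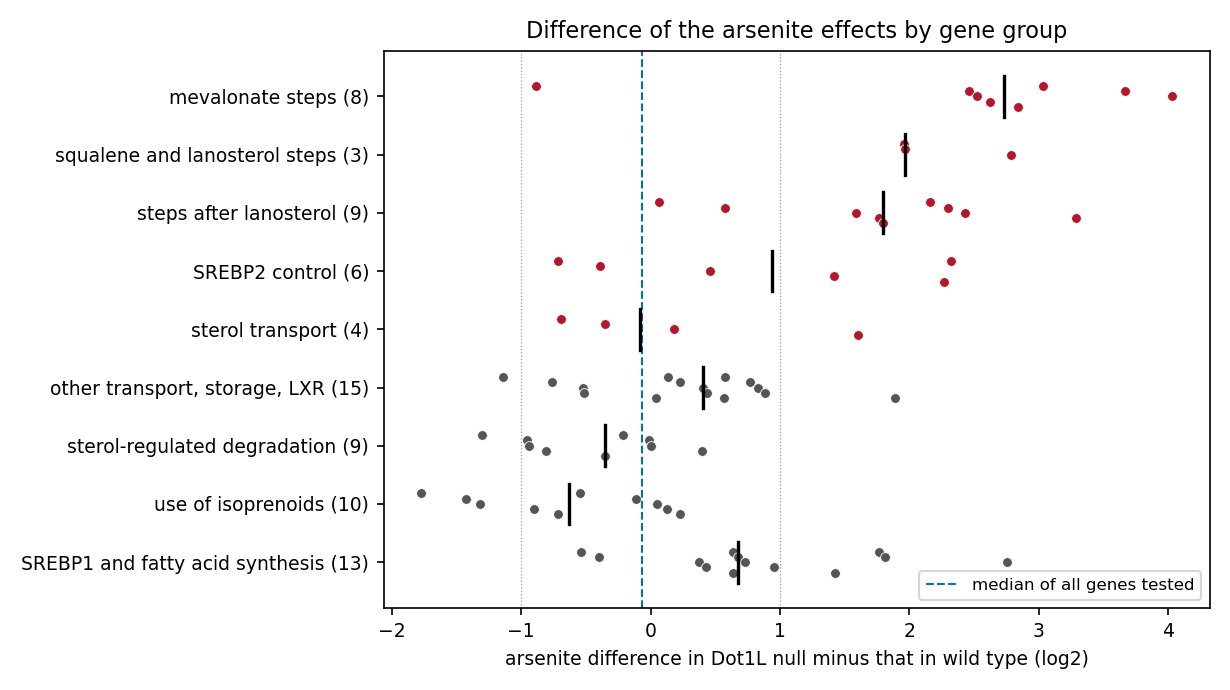
Difference of the arsenite effects (wild type subtracted from null, log2(RPKM + 1)) for each gene past the filter, by group, with the number of genes in parentheses; red points are the 30 genes, grey points the neighbouring lists, and vertical black bars the group medians. The blue dashed line is the median of all genes tested, −0.06, and dotted lines mark −1 and 1; the 3 synthesis groups have medians of 2.73, 1.96 and 1.80.

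Some values could hold reads of neighbouring genes, since the strand setting of the counting is not given in the sources used here. In the RefSeq annotation of GRCm38 the span of Fdft1 (chr14:63145150-63181687) meets that of Ctsb, whose RPKM values were 78.0, 110.2, 113 and 163. The span of Tm7sf2 (chr19:6062821-6067850) meets that of Vps51, at 14.2, 5.72, 10.5 and 2.85, and that of Npc1 meets Rmc1, at 6.89, 6.56, 6.34 and 3.25. Acat2 (chr17:12943042-12960725) overlaps an annotated pseudogene. The share of such reads was not tested.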

How the data were processed

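The authors deposited expression values as RPKM in a table of 37224 Ensembl IDs and 4 columns, 1 per RNA library. TopHat, HTSeq, Bowtie, deepTools and the build mm10 are named in the submitters' processing notes without version or role; for the annotation and for strand use in counting, the setting is not given in the sources used here. The labels' protocols name a kit for removing ribosomal RNA and a strand-marking library method, while the molecule label reads polyA RNA. Symbols were found for 35449 IDs. The 30 genes and the lists were chosen with earlier results of these data known; all 30 are named, and of each other list up to 4 genes with the largest difference of arsenite effects, 1 of which is not reported here.

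RPKM values move in whole-read steps. The commonest inverse of RPKM times annotated length over small RNA genes gave each library's reads (22 to 96 genes per library), and the shortest length that makes all values of a gene whole within 1e-06 reads gave its length. Lengths recovered this way equalled the annotated length in 348 of 504 small RNA genes, and the length trend used genes of at least 200 bases (lowess, fraction 0.3). Where a recovered length is a fraction of the true one, the recovered reads are too few by the same factor and the intervals too wide. The recovery and the fold calculation were tested on simulated data. Differences are log2((RPKM + 1)/(RPKM + 1)) with no further scaling. The 95% intervals of RPKM ratios are exact for the recovered reads (Clopper-Pearson). They cover counting error only, and reads without molecular identifiers are not independent molecules. Python 3.11.15, scipy 1.17.1 and statsmodels 0.14.6 were used.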

Additional observations from a re-analysis of the deposited data

Results flagged for a closer look

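In 3 genes the arsenite difference was past 2-fold in opposite ways in the 2 genotypes, lower in wild type and higher in the null. The difference of the effects was 2.52 for Mvk, 3.66 for Mvd and 3.28 for Cyp51 on the log2(RPKM + 1) scale. With 1 library per group it was not tested. For Mvk the difference in wild type, −1.12, was −0.56 with median centring, −0.64 with 75th percentile scaling and −0.77 with the length trend removed, short of 2-fold in each, while Mvd and Cyp51 stayed past 2-fold in both genotypes under these 3 settings.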

How the results depend on the processing

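The counts of the 30 genes were recomputed with each comparison centred on the median of all genes, with scaling to the 75th percentile, with the length trend removed, with a pseudocount of 0.1, with an RPKM filter of 5 and with no filter. The 2 filters left every count within 1.5 times its value. The number of genes with a difference of effects of at least 1 was 21 under each of the 6, and the number at most −1 was 0 except with the pseudocount of 0.1, where it was 1. Genes lower with arsenite in wild type numbered 21, and 15 with median centring, 16 with 75th percentile scaling and 13 with the length trend removed. Genes higher there numbered 1, and 2 with median centring, with 75th percentile scaling and with the length trend removed. Genes lower with arsenite in the null numbered 8, and 4 with median centring, 4 with 75th percentile scaling and 3 with the length trend removed. In the untreated null 19 genes were lower, and 15 with median centring, 16 with 75th percentile scaling and 14 with the length trend removed. Genes higher in the untreated null numbered 1, and 2 with median centring, with the length trend removed and with the pseudocount of 0.1. Genes lower in the null under arsenite numbered 1, and 0 with median centring, 75th percentile scaling and the length trend removed, and 2 with the pseudocount of 0.1. Genes higher in the null under arsenite numbered 11, and from 11 to 16 under the 6 settings. The pair of counts that join 2 comparisons, for which the same settings were chosen after seeing the data, were 7 to 10 genes lower in the null untreated and higher under arsenite, and 2 to 4 lower in wild type and higher in the null with arsenite. Among single genes the sign of a 2-fold difference turned in 2 cases, both with the length trend removed: Lss in the null, to 0.20, and Mbtps2 in wild type, to 0.16. Of all genes past 2-fold with arsenite, the share higher was 26.4% in wild type and 29.0% in the null as deposited, 52.8% and 49.6% with median centring, 43.9% and 46.5% with 75th percentile scaling, and 50.7% and 48.8% with the length trend removed. For the genotypes it was 30.5% untreated and 34.1% under arsenite as deposited, 43.9% and 57.1% with median centring, 39.2% and 48.6% with 75th percentile scaling, and 45.9% and 58.2% with the length trend removed. The cause of these changes was not tested. No paired analysis was possible because each group held 1 library. The arsenite libraries were the shallower ones, and 20 reads stand behind the lowest value among the 30 genes.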
